A study of Mus musculus with 16 samples.

Results

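The genes of 9 intermediate filament proteins were followed in cultured neural stem cells (NSC): *Nes*, *Gfap*, *Vim*, *Synm*, *Nefl*, *Nefm*, *Nefh*, *Ina* and *Prph*. They were chosen by name as the filament genes of stem, glial and neuronal cells, and they are 9 of the 55471 lines in each of the tables for day 5 and day 7. The NSC came from the cortices of C57BL/6 mouse embryos at E15-16, pooled from embryos of both sexes, and were passaged before use. All cultures grew as monolayers on poly-D-lysine with FCS, B27 and basic fibroblast growth factor (bFGF), and on day 5 after seeding the medium was changed to Neurobasal with B27 and GlutaMAX to start differentiation. All were transduced with a lentivirus, which carried either a scrambled shRNA (shRNA-CON) or an shRNA against the long non-coding RNA *RUS* (shRNA-RUS). Each shRNA and day is represented by 4 libraries, 16 in all, and the comparisons ask how the filament mRNAs differed with shRNA-RUS and from day 5 to day 7. The shRNA-RUS is a single hairpin sequence without a second one beside it in these libraries. The labels call the libraries of a group separate experiments without naming separate cultures or animals, so the p-values measure the spread between these libraries, which may in part be technical.

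Intermediate filaments are the rope-like part of the cytoskeleton beside actin and microtubules, built from coiled-coil dimers that assemble without a motor or a nucleotide. Vimentin (*Vim*), glial fibrillary acidic protein (*Gfap*) and peripherin (*Prph*) are type III proteins that can form filaments of their own, while nestin (*Nes*), synemin (*Synm*), alpha-internexin (*Ina*) and the light, medium and heavy neurofilament proteins (*Nefl*, *Nefm*, *Nefh*) are type IV. Nestin and synemin need a partner such as vimentin, nestin is the classical marker of neural stem cells and radial glia, and GFAP marks astrocytes and adult stem cells. In developing neurons, alpha-internexin comes early, the light and medium neurofilament proteins follow, and the heavy one accumulates as axons mature.

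The expression values are TPM, transcript abundances per length that the authors scaled to a fixed sum in each library. Sequencing depth cannot be read from TPM, but the authors' mean of normalized counts over the 8 libraries of a day shows how well each gene was covered. On day 5 it ran from 387284 for *Vim* over 6531 for *Nes*, 628 for *Ina*, 165 for *Prph* and 35.9 for *Nefl* to 4.145 for *Nefh*. On day 7 it was 20.5 for *Prph* and 14.6 for *Nefh*, so their values rest on few reads. The targeted gene, *Gm20754* (mouse *RUS*), was listed on day 5 at 0.24, 0.11, 0.18 and 0.16 TPM with shRNA-CON and at 0.05, 0, 0.12 and 0.32 TPM with shRNA-RUS. On day 7 it was listed at 0.70, 0.72, 0.26 and 0.54 TPM and at 0.54, 0.38, 0 and 0.04 TPM. The groups overlapped on both days, with log2 fold changes of -0.40 on day 5 (SE 0.44, limma adjusted p = 0.519) and -1.28 on day 7 (SE 0.61, limma adjusted p = 0.114), so these tables by themselves did not show the depletion beyond the spread. The cultures held transcripts of all 10 stem and radial glia markers, all 10 astrocyte markers and all 10 neuron markers in every group.

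Tests used log2(scaled TPM + 0.1), where scaled TPM is TPM divided by a library factor, and limma's moderated test with Benjamini-Hochberg adjustment over all genes tested. A gene is called when the adjusted p is under 0.05, and log2 fold changes are on that scale. After scaling, the median log2 change over all genes, shRNA-RUS over shRNA-CON, was -0.06 on day 5 and -0.03 on day 7. With TPM as deposited it was -0.20 on day 5, so that changes of day 5 taken from unscaled TPM have to be read against that shift.

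Vimentin and GFAP mRNA made up nearly all of the filament transcripts. The order *Vim*, *Gfap*, *Nes*, *Ina*, *Synm* held in all 4 groups, and no neighbours in it overlapped. On day 5 with shRNA-CON, *Vim* averaged 8918 ± 496 TPM, *Gfap* 1797 ± 78.8 TPM and *Nes* 56.0 ± 2.62 TPM (SD, n = 4 libraries each). *Ina* averaged 7.98 ± 0.918 TPM, *Synm* 5.42 ± 0.531 TPM and *Prph* 4.61 ± 0.561 TPM, of which *Synm* and *Prph* overlapped. *Nefm* lay at 1.79 ± 0.105 TPM, *Nefl* at 0.473 ± 0.0330 TPM and *Nefh* at 0.065 ± 0.010 TPM, in this order without overlap. At the bottom of the order on day 7, *Nefm*, *Nefl* and *Prph* lay close together, and *Nefl* and *Prph* overlapped with either shRNA. *Vim* alone held 0.892% ± 0.0496 of all TPM with shRNA-CON on day 5, 1.17% ± 0.0780 with shRNA-RUS, and 0.512% ± 0.0208 and 0.578% ± 0.0304 on day 7 (SD, n = 4). *Vim* and *Gfap* together supplied between 97.5% and 99.7% of the summed TPM of the 9 genes in every library.

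**Figure D1:**
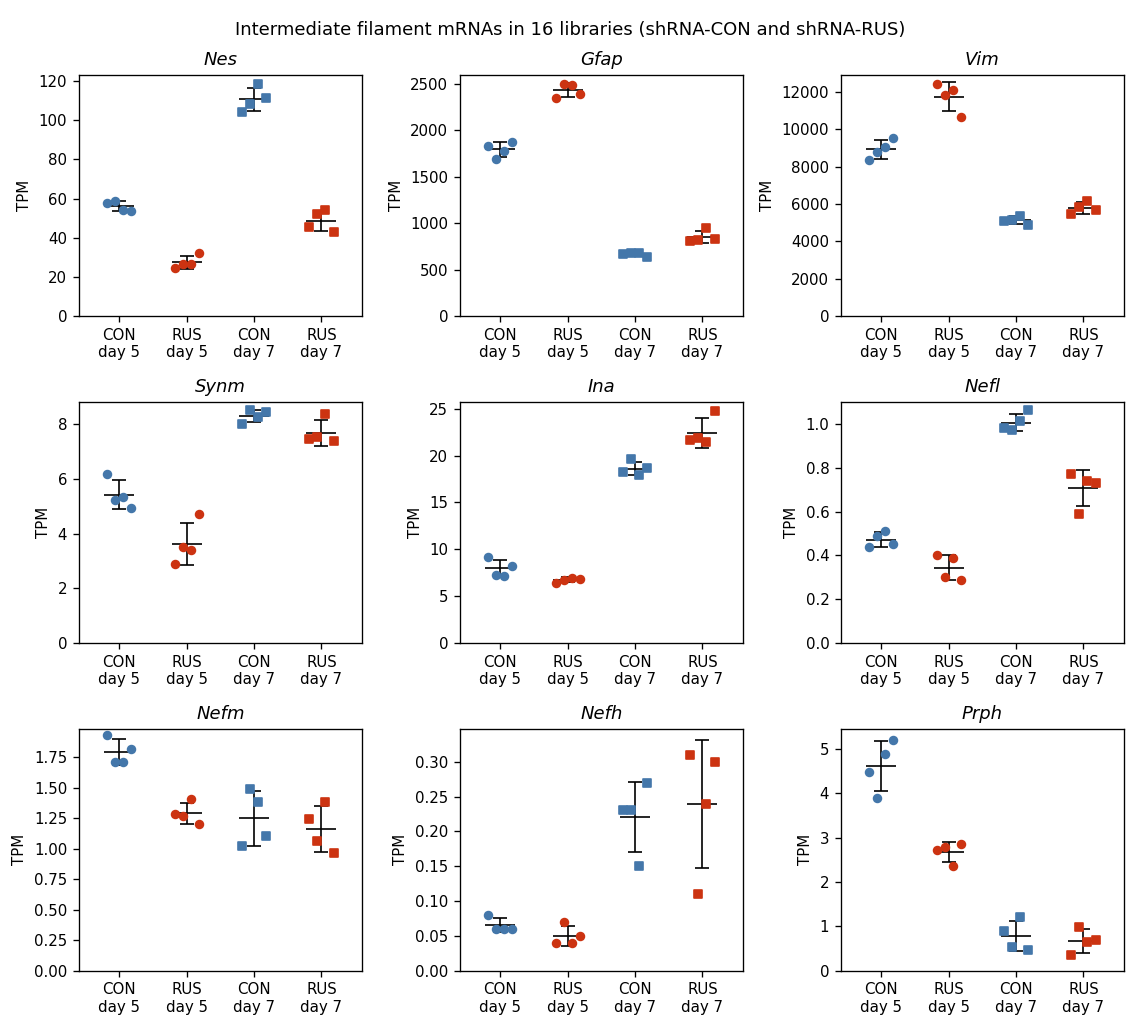
TPM of the 9 intermediate filament genes, one panel per gene, for each of the 16 libraries (blue shRNA-CON, red shRNA-RUS, circles day 5, squares day 7). Horizontal bars are group means and error bars the SD of 4 libraries, each vertical axis starts at 0, and *Nes* lies lower and *Gfap* and *Vim* higher with shRNA-RUS on both days.

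The promoters of the 3 most abundant members are shown because these mRNAs moved in opposite directions. They are the 150 bases before the RefSeq start site on build GRCm38.p6, chr3:87970943-87971092 on the plus strand for *Nes*, chr11:102897201-102897350 on the minus strand for *Gfap* and chr2:13574161-13574310 on the plus strand for *Vim*. The gene spans given below come from another annotation with other start sites. The *Gfap* and *Vim* windows lie inside those spans, and the *Nes* window runs past the start of its span. Capitals mark the TATA box (TATAAA), the box named for its letters CCAAT, and the GC box (GGGCGG), each searched on both strands, so that a motif on the other strand stands here as its reverse complement.
Nes: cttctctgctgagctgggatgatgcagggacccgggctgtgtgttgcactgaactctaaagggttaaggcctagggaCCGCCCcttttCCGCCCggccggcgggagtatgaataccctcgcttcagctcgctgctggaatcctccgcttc
Gfap: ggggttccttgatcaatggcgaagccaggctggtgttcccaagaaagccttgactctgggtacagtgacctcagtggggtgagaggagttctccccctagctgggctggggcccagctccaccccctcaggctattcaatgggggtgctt
Vim: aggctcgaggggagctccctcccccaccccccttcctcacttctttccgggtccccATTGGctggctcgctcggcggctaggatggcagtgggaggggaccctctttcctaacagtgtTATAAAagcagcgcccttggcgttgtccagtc
The *Nes* window holds a pair of GC boxes, the *Vim* window a TATA box that begins 32 bases before the start and a CCAAT box, and the *Gfap* window none of these letters. Among 32851 promoter windows of the same length, 7.57% hold the TATA box, 24.5% the CCAAT box and 28.6% the GC box. Windows were found for 6 of the 9 members. Of the others found, *Synm* has a CCAAT box, *Ina* a pair of GC boxes, and *Prph* a TATA box and a GC box. A match is only a description of the letters.

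On day 5, shRNA-RUS went with less nestin and peripherin mRNA and more GFAP mRNA. Vimentin mRNA was also called higher and synemin mRNA lower, but both calls were lost with quantile normalization (limma adjusted p = 0.0957 for *Vim* and 0.132 for *Synm*), and that of *Synm* also without any of 6 single libraries (0.0534 to 0.0679) and with the replicate block (limma adjusted p = 0.0834). Of the 8 members tested, 2 were called higher (*Gfap*, *Vim*) and 3 lower (*Nes*, *Synm*, *Prph*), against 32.7% of the 22581 genes tested, 14.8% called higher and 17.9% called lower. In 6 of the 8 the scaled values of the groups did not overlap, against 32.8% of all genes. *Nefh* had a mean under 0.1 TPM on day 5 and was not tested. The median log2 fold change of the 8 members was -0.27. Of all called genes on day 5, 45.4% were higher with the scaling used here, 22.6% with TPM as deposited and 33.2% with scaling to the 75th percentile. In bulk RNA, fewer cells of a type and less RNA per cell cannot be told apart, for these and all later comparisons.

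On day 7, nestin mRNA was lower again, GFAP and vimentin mRNA were higher again, and of the neuronal filament genes *Ina* was called higher, *Nefl* lower and *Nefm*, *Nefh* and *Prph* not. The *Nefl* call was lost in several alternatives given with its values. Of the 9 members, 3 were called higher (*Gfap*, *Vim*, *Ina*) and 2 lower (*Nes*, *Nefl*), against 49.2% of the 24606 genes tested, 23.4% higher and 25.8% lower. The groups did not overlap in 5 of the 9, against 47.0% of all genes. The median log2 fold change of the 9 members was -0.10. The share of members called was thus near that of all genes on day 7.

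**Figure D2:**
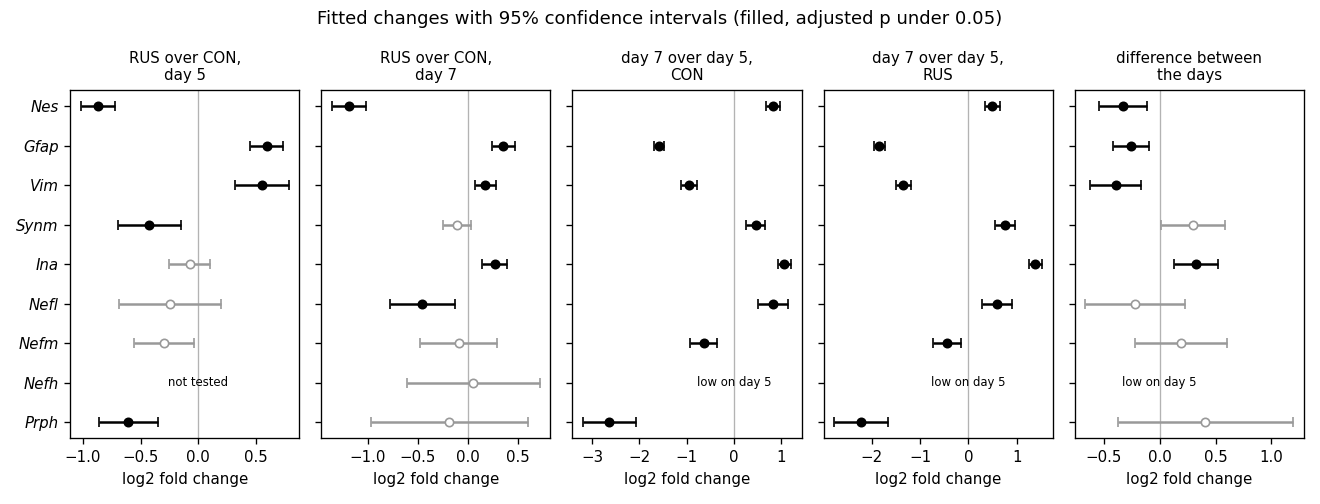
Fitted log2 fold changes of the 9 members (points) with 95% confidence intervals (bars) in 5 comparisons: shRNA-RUS over shRNA-CON on day 5 and on day 7, day 7 over day 5 with each shRNA, and the knockdown effect on day 7 minus that on day 5. *Nefh* is left out of the 3 comparisons that use both days because it was too low on day 5, filled points have a limma adjusted p under 0.05, horizontal scales differ between panels, and *Nes* shows the most negative knockdown value on both days.

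*Nes* (chromosome 3, 87971078 to 87980451, plus strand, GRCm38) had 57.7, 58.8, 54.2 and 53.4 TPM with shRNA-CON and 24.8, 26.55, 26.6 and 32.15 TPM with shRNA-RUS on day 5. By day 7 it had 104, 108, 118 and 111 TPM with shRNA-CON and 45.3, 52.0, 54.0 and 43.15 TPM with shRNA-RUS. Every shRNA-RUS library lay below every control library of its day, and those of day 7 also lay below the controls of day 5 except replicate 3, which reached 54.0 TPM. The fitted change was -0.87 on day 5 (SE 0.07, limma adjusted p = 3.46e-05), 1.83-fold lower, and -1.19 on day 7 (SE 0.08, limma adjusted p = 1.71e-06), 2.28-fold lower. It was larger in size than the change of all but 9.35% of the genes tested on day 5 and 7.62% on day 7, and it stayed called in each alternative and without each library in turn.

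Other stem and radial glia genes did not share one direction with nestin. Of the 10 on the list, 3 were called higher (*Pax6*, *Fabp7*, *Sox9*) and 3 lower (*Hes1*, *Hes5*, *Tnc*) on day 5, with a median log2 fold change of -0.06 as for all genes. On day 7, 3 were higher (*Pax6*, *Sox9*, *Msi1*) and 5 lower (*Hes1*, *Hes5*, *Tnc*, *Prom1*, *Slc1a3*), with a median of -0.09 (all genes -0.03). *Hes1*, a transcription factor downstream of Notch, fell by 1.31 on day 5 (SE 0.15, limma adjusted p = 0.000223) and 0.78 on day 7 (SE 0.08, limma adjusted p = 2.57e-05). *Tnc*, the matrix protein tenascin C, fell by 0.86 and 0.73 on the log2 scale (SE 0.12 and 0.07, limma adjusted p = 0.000632 and 2.99e-05). *Pax6*, a transcription factor of cortical progenitors, rose by 0.25 on day 5 and 0.20 on day 7 (SE 0.05 for both, limma adjusted p = 0.00258 and 0.00452). The summed level of the list ran from 4583 to 5173 TPM with shRNA-CON and from 5172 to 6019 TPM with shRNA-RUS on day 5, and from 2444 to 2581 TPM and 2270 to 2497 TPM on day 7. *Fabp7* alone averaged 3510 and 4497 TPM on day 5 and 1248 and 1223 TPM on day 7. The sum of day 5 thus mostly follows this 1 gene and does not describe the list as a whole.

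*Gfap* (chromosome 11, 102887336 to 102900912, minus strand) had 1836, 1695, 1782 and 1877 TPM with shRNA-CON and 2352, 2499, 2488 and 2396 TPM with shRNA-RUS on day 5. The day 7 libraries had 668, 675, 679 and 635 TPM with shRNA-CON and 805, 818, 944 and 833 TPM with shRNA-RUS. No groups overlapped on either day, and the libraries of day 7 lay far below all of day 5. The level was 1.51-fold higher with shRNA-RUS on day 5 (log2 0.60, SE 0.06, limma adjusted p = 0.000163) and 1.28-fold higher on day 7 (log2 0.35, SE 0.05, limma adjusted p = 0.000304).

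*Vim* (chromosome 2, 13573927 to 13582826, plus strand) had 8330.1, 8782, 9044 and 9516 TPM with shRNA-CON and 12428, 11797, 12101 and 10637 TPM with shRNA-RUS on day 5. The corresponding day 7 values were 5113, 5129, 5376 and 4866 TPM with shRNA-CON and 5449, 5819.6, 6175 and 5679 TPM with shRNA-RUS. Here too the shRNA-RUS libraries lay above all controls of their day, though on day 7 the highest control at 5376 TPM came close to the lowest shRNA-RUS library at 5449 TPM. The rise was 1.47-fold on day 5 (log2 0.55, SE 0.10, limma adjusted p = 0.00327) and 1.13-fold on day 7 (log2 0.17, SE 0.05, limma adjusted p = 0.0116). The call was lost with quantile normalization on both days (log2 0.23, limma adjusted p = 0.0957 on day 5, and 0.11, limma adjusted p = 0.245 on day 7), and on day 7 also with scaling to the 75th percentile (limma adjusted p = 0.18) and without the filter on low genes (limma adjusted p = 0.0565).

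The rise of *Gfap* was not that of a whole astrocyte list. Of 10 astrocyte genes, 3 were called higher (*Aldoc*, *Glul*, *Sox9*) and 3 lower (*Fgfr3*, *Gjb6*, *Slc1a2*) on day 5 (median log2 fold change 0.02, all genes -0.06). On day 7, 4 were higher (*Aldoc*, *Glul*, *Sox9*, *Aldh1l1*) and 2 lower (*Fgfr3*, *S100b*), with a median of 0.04 (all genes -0.03). *Aldoc*, the brain form of aldolase, rose by 0.57 and 0.61 (SE 0.07 and 0.04, limma adjusted p = 0.000302 and 9.66e-07), and *Glul*, glutamine synthetase, by 0.33 and 0.52 (SE 0.07 and 0.03, limma adjusted p = 0.00509 and 9.82e-07). *Fgfr3*, a fibroblast growth factor receptor of glial progenitors, fell by 1.15 and 0.75 (SE 0.09 and 0.04, limma adjusted p = 3.46e-05 and 4.59e-07). The summed level of the list was 3480 to 3835 TPM with shRNA-CON and 3724 to 4316 TPM with shRNA-RUS on day 5, and 2704 to 2794 TPM and 3453 to 3550 TPM on day 7.

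Vimentin is also made by microglia, vascular cells and fibroblasts, so their markers are given beside it. Of 8 microglia genes, 2 were called lower on day 5 (*Csf1r*, *Tmem119*) and all 8 on day 7. Their sum ran from 292 to 321 TPM with shRNA-CON and from 137 to 167 TPM with shRNA-RUS on day 7 (116 to 129 TPM and 101 to 124 TPM on day 5). *Csf1r*, the receptor that microglia depend on, fell by 0.54 on day 5 (SE 0.08, limma adjusted p = 0.000802) and 1.29 on day 7 (SE 0.10, limma adjusted p = 6.84e-06). Of 8 fibroblast and vascular genes, 6 were tested, of which *Pdgfrb* was called higher on day 5 and *Pdgfrb*, *Col1a1* and *Col3a1* on day 7, with a sum of 24.4 to 35.75 TPM over all libraries of day 5, 16.1 to 18.6 TPM with shRNA-CON on day 7 and 34.2 to 39.2 TPM with shRNA-RUS. *Pdgfrb*, the receptor that marks pericytes, rose by 0.32 and 1.32 (SE 0.10 and 0.06, limma adjusted p = 0.0303 and 2.44e-07). On day 7 it averaged 11.45 TPM with shRNA-CON and 28.7 TPM with shRNA-RUS, most of the list sum. The vascular genes *Pecam1* (0.255 and 0.3525 TPM, not called) and *Cdh5* (0.0475 and 0 TPM, not tested) were near 0 on day 7. Of 8 oligodendrocyte lineage genes, 4 were called lower on day 5 (*Olig2*, *Sox10*, *Pdgfra*, *Cspg4*) and 6 on day 7, with *Olig1* and *Mbp* in addition. Their sum was 242 to 316 TPM with shRNA-CON and 154 to 217 TPM with shRNA-RUS on day 5, and 401 to 449 TPM and 263 to 289.5 TPM on day 7. *Pdgfra*, a receptor of oligodendrocyte precursors, fell by 1.14 and 0.83 (SE 0.12 and 0.14, limma adjusted p = 0.000163 and 0.000789), and the lineage factor *Olig2* by 0.62 and 0.69 (SE 0.13 and 0.06, limma adjusted p = 0.00599 and 7.79e-06). The part of these cells in the filament values was not tested.

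*Synm* (chromosome 7, 67730160 to 67759742, minus strand), which links other filaments to membrane complexes, had 6.17, 5.24, 5.32 and 4.93 TPM with shRNA-CON and 2.88, 3.53, 3.42 and 4.70 TPM with shRNA-RUS on day 5. By day 7 the values were 8.0, 8.51, 8.25 and 8.42 TPM with shRNA-CON and 7.45, 7.51, 8.37 and 7.37 TPM with shRNA-RUS. The groups lay apart on day 5, with replicate 4 of shRNA-RUS close to the controls, and overlapped on day 7 through replicate 3 of shRNA-RUS. The fall of 0.43 on day 5 (SE 0.12, limma adjusted p = 0.025) was 1.34-fold, and the value on day 7 was -0.11 (SE 0.06, limma adjusted p = 0.155). The call of day 5 lay near the threshold. It ended without any 1 of replicates 1 to 3 of either shRNA, with fitted values from -0.43 to -0.34, against -0.43 with all libraries. *Synm* shares 84 exonic bases with *Ttc23* and 426 with *Gm45102* on the opposite strand. Since the sources used here do not state whether the libraries kept the strand, reads of such stretches cannot be told apart. *Ttc23* averaged 23.7 TPM with shRNA-CON and 32.9 TPM with shRNA-RUS on day 5 (log2 0.62, SE 0.08, limma adjusted p = 0.000502) and 22.3 and 33.5 TPM on day 7 (log2 0.58, SE 0.05, limma adjusted p = 1e-05), and its part in the *Synm* values was not tested.

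The neuronal filament genes were low, and alpha-internexin led them. *Ina* (chromosome 19, 47014698 to 47025327, plus strand) had 9.19, 7.32, 7.22 and 8.20 TPM with shRNA-CON and 6.42, 6.76, 6.99 and 6.89 TPM with shRNA-RUS on day 5. These deposited values did not overlap, but after scaling the ranges did, at 6.86 to 8.26 with shRNA-CON and 6.83 to 7.45 with shRNA-RUS. The log2 fold change of -0.07 was not called (SE 0.08, limma adjusted p = 0.521). On day 7 *Ina* had 18.2, 19.6, 17.95 and 18.7 TPM with shRNA-CON and 21.6, 21.8, 21.4 and 24.8 TPM with shRNA-RUS, with every shRNA-RUS library above every control. The rise was 1.20-fold (log2 0.26, SE 0.06, limma adjusted p = 0.00325). Of its exonic bases, 14.1% are shared with *Nt5c2* on the opposite strand. *Nt5c2*, a nucleotidase, averaged 22.7 TPM with shRNA-CON and 16.5 TPM with shRNA-RUS on day 5 (log2 -0.30, SE 0.08, limma adjusted p = 0.0198) and 33.0 and 29.85 TPM on day 7 (log2 -0.14, SE 0.08, limma adjusted p = 0.151), and its part in the *Ina* values was not tested.

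*Nefl*, the subunit around which neurofilaments assemble (chromosome 14, 68083863 to 68089095, plus strand), had 0.44, 0.49, 0.51 and 0.45 TPM with shRNA-CON and 0.40, 0.30, 0.39 and 0.29 TPM with shRNA-RUS on day 5. By day 7 it had 0.98, 0.97, 1.01 and 1.06 TPM with shRNA-CON and 0.77, 0.59, 0.74 and 0.73 TPM with shRNA-RUS. The shRNA-RUS libraries were lower on both days in TPM, but on day 5 the scaled values overlapped, at 0.395 to 0.484 and 0.287 to 0.435. The log2 fold change came to -0.24 on day 5 (SE 0.20, limma adjusted p = 0.381) and -0.46 on day 7 (SE 0.14, limma adjusted p = 0.0245), a 1.38-fold fall. This call ended without replicate 3 or 4 of shRNA-CON or replicate 2 of shRNA-RUS (-0.46, -0.43 and -0.39, limma adjusted p = 0.0521, 0.0591 and 0.065), with the replicate block (0.063), without the filter on low genes (0.0657) and with quantile normalization (0.0623). The size of the value depends on the pseudocount at this level, and with a pseudocount of 1 it was -0.23 (limma adjusted p = 0.0171).

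*Nefm* (chromosome 14, 68082590 to 68124846, minus strand) had 1.93, 1.71, 1.71 and 1.82 TPM with shRNA-CON and 1.28, 1.27, 1.41 and 1.20 TPM with shRNA-RUS on day 5. The groups lay apart, yet the log2 fold change of -0.30 was not called (SE 0.12, limma adjusted p = 0.0806). It was called with TPM as deposited (-0.45, limma adjusted p = 0.0189), with scaling to the 75th percentile (-0.37, limma adjusted p = 0.035) and without a trend (limma adjusted p = 0.027). On day 7 *Nefm* had 1.02, 1.49, 1.38 and 1.10 TPM with shRNA-CON and 1.24, 1.06, 1.38 and 0.96 TPM with shRNA-RUS, with overlap (log2 -0.10, SE 0.17, limma adjusted p = 0.678). *Nefl* lies within the span of *Nefm* on the opposite strand, and 1108 exonic bases are shared, 32.8% of those of *Nefl* and 19.2% of those of *Nefm*. The values of this pair can therefore not be fully separated.

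*Nefh* (chromosome 11, 4938754 to 4948064, minus strand) had 0.08, 0.06, 0.06 and 0.06 TPM with shRNA-CON and 0.04, 0.07, 0.04 and 0.05 TPM with shRNA-RUS on day 5. Values on day 7 were 0.23, 0.23, 0.15 and 0.27 TPM and 0.31, 0.11, 0.24 and 0.30 TPM. The groups overlapped on both days, and the day 7 log2 fold change came to 0.05 (SE 0.29, limma adjusted p = 0.906). Its 95% interval from -0.61 to 0.72 shows that a change of moderate size in either direction could not be seen at this level.

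The neuron list had no common direction on day 5 either and leaned higher on day 7. Of 10 neuron genes, 3 were called higher (*Mapt*, *Stmn2*, *Syt1*) and 3 lower (*Dcx*, *Map2*, *Elavl4*) on day 5 (median log2 fold change -0.03, all genes -0.06). On day 7, 5 were higher (*Mapt*, *Snap25*, *Syt1*, *Elavl3*, *Rbfox3*) and 3 lower (*Elavl4*, *Map2*, *Stmn2*), with a median of 0.33 (all genes -0.03). *Mapt*, the microtubule protein tau of axons, rose by 0.35 and 0.88 (SE 0.07 and 0.05, limma adjusted p = 0.00356 and 6.38e-07). *Elavl4*, a neuronal RNA-binding protein, fell by 0.93 and 0.41 (SE 0.16 and 0.12, limma adjusted p = 0.00209 and 0.0164). The summed level was 523 to 659 TPM with shRNA-CON and 498 to 552 TPM with shRNA-RUS on day 5, and 869 to 964 TPM and 879.7 to 1021 TPM on day 7.

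*Prph* (chromosome 15, 99055174 to 99058978, plus strand), the filament protein of peripheral and motor neurons, had 4.47, 3.90, 4.88 and 5.20 TPM with shRNA-CON and 2.71, 2.78, 2.36 and 2.85 TPM with shRNA-RUS on day 5. Values on day 7 were 0.90, 0.53, 1.21 and 0.47 TPM and 0.34, 0.99, 0.64 and 0.69 TPM. The shRNA-RUS libraries were lower on day 5 without overlap, and the groups mixed on day 7. The fall on day 5 was 1.52-fold (log2 -0.61, SE 0.11, limma adjusted p = 0.00317), and on day 7 the log2 fold change came to -0.19 (SE 0.35, limma adjusted p = 0.689). Of 8 peripheral and motor neuron markers, 2 were tested on day 5 and 3 on day 7, with *Avil*, an actin-binding protein of sensory neurons, called lower on each day (log2 -1.22 and -1.09, SE 0.15 for both, limma adjusted p = 0.000302 and 0.000256). Their sum was at most 2.77 TPM in any library, at 2.13 to 2.60 TPM with shRNA-CON and 0.97 to 1.38 TPM with shRNA-RUS on day 5 and at 2.21 to 2.77 TPM and 1.09 to 1.27 TPM on day 7. The motor neuron factor *Mnx1* was listed at 0 in all control libraries of both days. The part of such cells in the *Prph* values was not tested.

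Ratios within a library do not depend on the library factor, and they are given as a description. Nestin TPM per 100 vimentin TPM was 0.631 ± 0.0610 with shRNA-CON and 0.237 ± 0.0452 with shRNA-RUS on day 5, and 2.16 ± 0.108 and 0.840 ± 0.0594 on day 7 (SD, n = 4). The lowest control library had 0.561 on day 5 and the highest shRNA-RUS library 0.302, so that the ranges lay apart on both days. GFAP per 100 vimentin was 20.2 ± 1.25 and 20.8 ± 1.49 on day 5, with overlap, and 13.0 ± 0.234 and 14.7 ± 0.505 on day 7, without. Synemin per 100 nestin was 9.66 ± 0.779 and 13.1 ± 1.23 on day 5 and 7.52 ± 0.386 and 15.9 ± 1.15 on day 7, higher in every shRNA-RUS library than in every control of its day. *Nefl* per 100 *Nefm* was 26.5 ± 3.29 and 26.7 ± 3.54 on day 5 and 82.7 ± 16.0 and 61.9 ± 10.1 on day 7, where the ranges overlapped. *Ina* made up 77.3% ± 1.36 of the summed TPM of *Ina*, *Nefl*, *Nefm* and *Nefh* with shRNA-CON and 80.1% ± 1.32 with shRNA-RUS on day 5, and 88.3% ± 0.659 and 91.4% ± 1.37 on day 7.

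**Figure D3:**
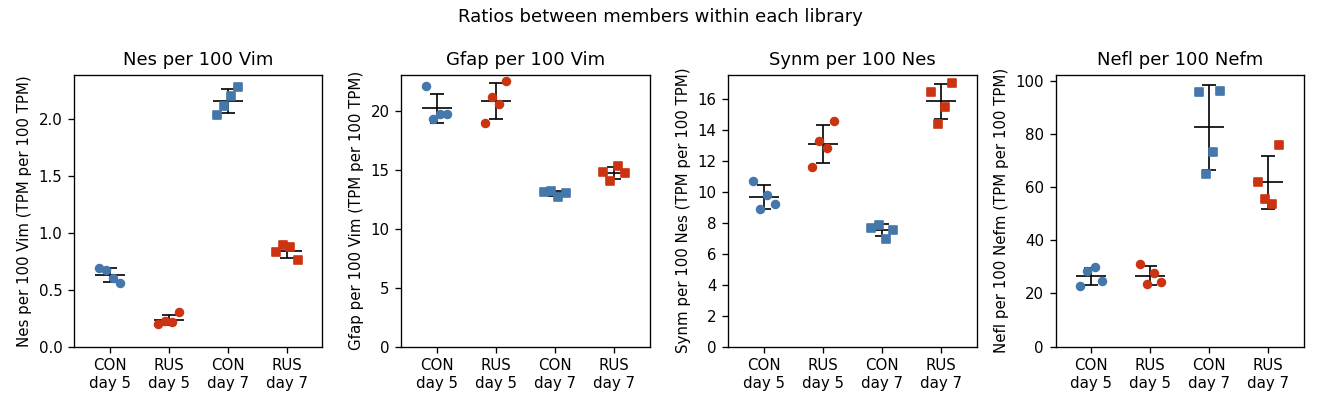
Ratios of TPM between members within each of the 16 libraries (points, blue shRNA-CON, red shRNA-RUS, circles day 5, squares day 7), with the group mean and SD of 4 libraries and vertical axes that start at 0. Within each day, nestin per 100 vimentin lies lower in every shRNA-RUS library than in every control, and synemin per 100 nestin lies higher.

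From day 5 to day 7 the 8 members other than *Nefh* changed with either shRNA. With shRNA-CON 4 rose and 4 fell, against 48.5% of the 23789 genes called, 26.9% higher and 21.6% lower. With shRNA-RUS the same 4 rose and the same 4 fell, against 60.8% of genes, 35.0% higher and 25.8% lower. *Nefh* entered this fit only through its day 7 values, so its change with time is given without a test, from 0.065 to 0.22 TPM with shRNA-CON and from 0.05 to 0.24 TPM with shRNA-RUS. These comparisons rest on the libraries already used above, and the tables of the days are separate, so that day cannot be told apart from anything else that differed between their libraries. The median log2 change of all genes was 0.07 with shRNA-CON and 0.13 with shRNA-RUS, and 0.20 and 0.41 with TPM as deposited. The share of higher among called genes was 55.5% and 57.55%, and 71.4% and 76.9% with TPM as deposited.

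The glial filament mRNAs fell with time and nestin rose. In the controls *Gfap* fell by 1.59 on the log2 scale (SE 0.05, limma adjusted p = 3.23e-12), 3.0-fold, and *Vim* by 0.95 (SE 0.08, limma adjusted p = 5.53e-08), 1.93-fold. *Nes* rose 1.77-fold (log2 0.83, SE 0.07, limma adjusted p = 1.32e-07) and *Synm* 1.38-fold (log2 0.46, SE 0.10, limma adjusted p = 0.000832). With shRNA-RUS, *Gfap* fell 3.59-fold (log2 -1.84, SE 0.05, limma adjusted p = 5.4e-13), *Vim* 2.54-fold (log2 -1.35, SE 0.08, limma adjusted p = 7.48e-10), while *Nes* rose 1.41-fold (log2 0.50, SE 0.07, limma adjusted p = 1.81e-05; 0.82 with TPM as deposited) and *Synm* 1.70-fold (log2 0.76, SE 0.10, limma adjusted p = 4.14e-06). In the astrocyte list, 7 of 10 genes fell and 1 rose with shRNA-CON, and 5 fell and 2 rose with shRNA-RUS. In the stem and radial glia list, 4 of 10 fell and 3 rose with shRNA-CON, and 6 fell and 2 rose with shRNA-RUS.

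Of the neuronal filament genes, *Ina* rose 2.09-fold in the controls (log2 1.07, SE 0.07, limma adjusted p = 2.98e-09), and 2.62-fold with shRNA-RUS (log2 1.39, SE 0.07, limma adjusted p = 1.2e-10). *Nefl* rose by 0.81 (SE 0.15, limma adjusted p = 0.000282) and 0.60 (SE 0.15, limma adjusted p = 0.00254). With a pseudocount of 1 the *Nefl* values were 0.38 and 0.24, still called (limma adjusted p = 5.37e-05 and 0.00201). *Nefm*, the third neurofilament subunit, fell by 0.64 (SE 0.14, limma adjusted p = 0.000993) and 0.45 (SE 0.14, limma adjusted p = 0.00924). With shRNA-RUS the deposited *Nefm* values of the days overlapped, and the call was lost with TPM as deposited (-0.15, limma adjusted p = 0.356). With a pseudocount of 1 the *Nefm* values were -0.40 and -0.27, and with quantile normalization that with shRNA-RUS was -0.77, all called. Quantile normalization gave 0.54 for *Nefl* in the controls and ended its call with shRNA-RUS (0.24, limma adjusted p = 0.191). *Prph* fell by 2.64 in the controls (SE 0.26, limma adjusted p = 5.91e-07) and by 2.23 with shRNA-RUS (SE 0.26, limma adjusted p = 2.01e-06). The size of the *Prph* change also rests on the pseudocount, with -1.75 and -1.35 at a pseudocount of 1, both called. In the neuron list, 8 of 10 genes rose and 1 fell with shRNA-CON, with a median of 0.67, and 9 rose and 1 fell with shRNA-RUS, with a median of 1.15. The oligodendrocyte lineage list had 5 higher and 1 lower of 8 with shRNA-CON and 6 higher with shRNA-RUS, and the microglia list 6 higher of 8 with shRNA-CON, and 3 higher and 1 lower with shRNA-RUS.

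The knockdown effect itself differed between the days for 4 members, against 29.8% of the 23789 genes tested, 15.2% with a higher value on day 7 and 14.6% with a lower one. The value on day 7 minus that on day 5 was -0.33 for *Nes* (SE 0.10, limma adjusted p = 0.0222), whose fall was larger on day 7. It was -0.26 for *Gfap* (SE 0.07, limma adjusted p = 0.0161) and -0.39 for *Vim* (SE 0.11, limma adjusted p = 0.0119), whose rise was smaller on day 7 with this scaling. With quantile normalization the difference for *Gfap* was -0.001 and not called, and the separate fits per day gave 0.43 on day 5 and 0.45 on day 7. For *Ina* it was 0.32 (SE 0.09, limma adjusted p = 0.0164). For *Synm*, *Nefl*, *Nefm* and *Prph* the difference was not called, and the values lay between -0.22 and 0.41. With TPM as deposited the median of all genes was 0.19 in place of 0.04, the share of higher among called genes 73.5% in place of 51.1%, and the calls of *Nes* (-0.16, limma adjusted p = 0.323) and *Gfap* (-0.08, limma adjusted p = 0.382) were lost, *Vim* was at -0.22 and *Ina* at 0.49, both called, and *Synm* was called as well (0.47, limma adjusted p = 0.0378). Scaling to the 75th percentile ended the call of *Nes* (-0.30, limma adjusted p = 0.0742). Quantile normalization ended the calls of *Gfap*, *Vim* and *Ina* (limma adjusted p = 0.993, 0.331 and 0.116), and *Synm* was called without replicate 4 of shRNA-RUS on day 5 (0.40, limma adjusted p = 0.00911).

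Proteins that work with the filaments were counted from lists by role. Of all genes tested, 14.8% were called higher and 17.9% lower on day 5, and 23.4% and 25.8% on day 7. The knockdown counts of all lists, here and above, have to be read against these shares. Among 12 kinases and activators that phosphorylate filament proteins, 3 were called higher and 4 lower on day 5 (median log2 fold change -0.21). On day 7, 6 were higher and 4 lower (median 0.08). The mitotic kinases, which take vimentin filaments apart in dividing cells, fell on both days: *Cdk1* by 0.91 and 1.72 (SE 0.06 and 0.09, limma adjusted p = 1.59e-05 and 6.95e-07), *Aurkb* by 1.01 and 1.24 (SE 0.06 and 0.05, limma adjusted p = 1.69e-05 and 2.63e-07) and *Plk1* by 0.89 and 1.17 (SE 0.06 and 0.08, limma adjusted p = 1.75e-05 and 2.92e-06). *Mapk3*, the kinase ERK1, rose by 0.54 and 0.46 (SE 0.05 and 0.04, limma adjusted p = 0.000128 and 1.74e-05).

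Chaperones and turnover factors of filaments were higher more often than lower. Of 7, 4 were called higher (*Cryab*, *Hspb1*, *Stub1*, *Bag3*) and 1 lower (*Ubqln2*) on day 5 (median 0.39, all genes -0.06), against 14.8% and 17.9% of all genes. On day 7, 5 were higher and none lower (median 0.44, all genes -0.03), against 23.4% and 25.8% of all genes. These 5 were not the same genes as on day 5. *Hspb1* and *Bag3* were called higher on both days, whereas *Ubqln2*, a ubiquitin-binding shuttle protein, went from -0.19 on day 5 (SE 0.06, limma adjusted p = 0.0283) to 0.24 on day 7 (SE 0.06, limma adjusted p = 0.0089). *Cryab* and *Stub1* were not called on day 7 (0.11 and 0.09, limma adjusted p = 0.119 and 0.143). *Bag3*, a co-chaperone of selective autophagy, rose by 0.71 and 1.49 (SE 0.07 and 0.10, limma adjusted p = 0.000129 and 2.83e-06), and *Hspb1*, a small heat shock protein that binds filaments, by 0.60 and 0.58 (SE 0.13 and 0.10, limma adjusted p = 0.00788 and 0.000736). The list sum was 721 to 795 TPM with shRNA-CON and 932 to 1081 TPM with shRNA-RUS on day 5, and 661 to 719 TPM and 826.5 to 846 TPM on day 7. Of 7 cytolinkers, the plakins that tie filaments to actin, microtubules and junctions, 6 were tested on day 5, with *Dst* higher and *Ppl* lower (median -0.07), and 5 on day 7, with *Dst*, *Plec* and *Macf1* higher and *Evpl* lower (median 0.23). *Dst*, dystonin, rose by 0.51 and 0.83 (SE 0.08 and 0.04, limma adjusted p = 0.00105 and 5.81e-07).

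Of 8 motor proteins and adaptors that carry neurofilaments, 1 was called higher (*Klc1*) and 3 lower (*Kif5b*, *Kif5c*, *Myo5a*) on day 5 (median -0.14). On day 7, 5 were higher (*Kif5a*, *Klc1*, *Klc2*, *Dync1h1*, *Dctn1*) and the same 3 lower (median 0.31). *Myo5a*, the myosin that binds the light neurofilament subunit, fell by 1.45 and 0.60 (SE 0.11 and 0.05, limma adjusted p = 3.09e-05 and 8.98e-06). The kinesin heavy chain *Kif5b* fell by 0.56 and 0.21 (SE 0.14 and 0.06, limma adjusted p = 0.0142 and 0.0208), while the kinesin light chain *Klc1* rose by 0.27 and 0.22 (SE 0.07 and 0.03, limma adjusted p = 0.0134 and 0.000269).

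A chosen list of 15 other intermediate filament genes, among them lamins, some keratins and lens or muscle filament genes but not the whole family, had 12 members tested, with none higher and 3 lower (*Lmnb1*, *Lmnb2*, *Iffo2*) on day 5 (median -0.14). On day 7, 3 were higher (*Lmna*, *Sync*, *Iffo1*) and 6 lower (median -0.40), the latter with *Bfsp1*, *Bfsp2* and *Krt8* in addition. *Lmnb1* and *Lmnb2*, the B-type lamins of the nuclear lamina, fell by 0.93 and 0.92 on day 5 (SE 0.05 and 0.09, limma adjusted p = 1.21e-05 and 9.87e-05) and by 0.64 and 0.63 on day 7 (SE 0.04 and 0.06, limma adjusted p = 1.31e-06 and 3.05e-05). Their fall had the same direction as that of *Nes* and the opposite one to *Vim* and *Gfap*. The epidermal keratin gene *Krt14* was listed at 0 in all 16 libraries.

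**Figure D4:**
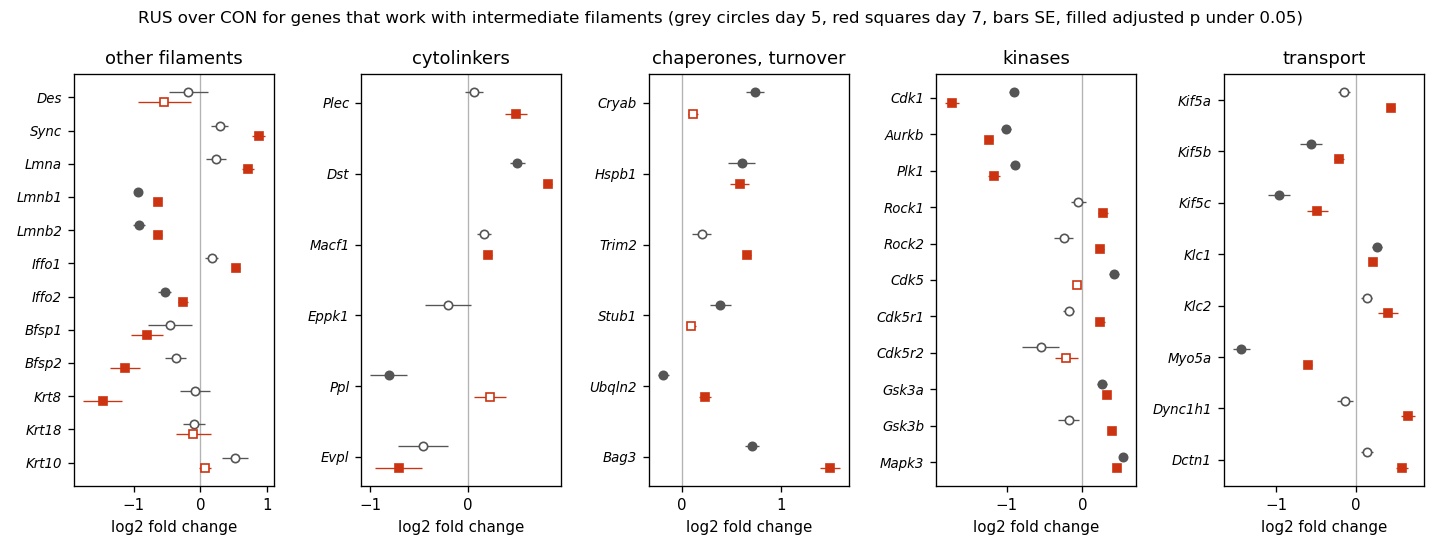
Log2 fold changes of shRNA-RUS over shRNA-CON (points) with their SE (bars) for genes of the lists of other intermediate filament genes, cytolinkers, chaperones and turnover factors, kinases and transport proteins on day 5 (grey circles) and day 7 (red squares), where filled points have a limma adjusted p under 0.05. The kinases *Cdk1*, *Aurkb* and *Plk1* and the lamins *Lmnb1* and *Lmnb2* lie left of 0 on both days, and *Bag3*, *Hspb1* and *Dst* lie right of it.

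For each member with at least 1 TPM on both days, the genes with the most similar pattern over the 16 libraries were sought among 14908 genes, by the root mean square difference of centred log2 values. For *Nes* these were *Rgs9* (0.08) and *Pcsk6* (0.10), against an SD of *Nes* itself of 0.65. For *Gfap*, with an SD of 0.92, they were *Nqo1* (0.12) and *Ifitm3* (0.14), and for *Vim*, with an SD of 0.64, *S100a1* (0.08) and *Ech1* (0.09). *Synm* (SD 0.37) lay nearest to *Dip2b* (0.06) and *Arhgap21* (0.06), *Nefm* (SD 0.34) to *Asphd2* (0.15) and *Pgm2* (0.15), and *Ina* (SD 0.65) to *Maml3* (0.09) and *Cdk5r1* (0.10). No other member was among the nearest genes of a member.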

How the data were processed

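RNA-seq was analysed for 16 libraries of cultured mouse NSC in the 4 labelled groups. PolyA RNA was sequenced by the authors on a NextSeq, and STAR (mm10, GRCm38.99 transcripts) and RSEM gave the abundances, per the paper and the submitters' processing notes. The authors deposited TPM per library, which sum to between 999999.3 and 1000000.7 and keep no record of depth. The deposited tables also hold the authors' own DESeq2 comparison, a base mean, which is normalized signal averaged per day (given as the authors' mean), and log2 fold changes with standard errors, a test statistic (a score) and p-values, which were not used.

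TPM were divided by library factors, the median ratio to the geometric mean using genes that reached 1 TPM in every library of a fit (0.92 to 1.11 on day 5, 0.991 to 1.01 on day 7, 0.845 to 1.10 over both days). Genes averaging 0.1 TPM or more were tested on log2(scaled TPM + 0.1) with limma 3.58.1 in R 4.3.3 (trend, two-sided, Benjamini-Hochberg, threshold 0.05), per day for the knockdown and over the 16 libraries for time and the difference of effects. On day 5, 3 lines without a gene name, and 106 lines that differ between the tables in the joint fit, were left out. The test was checked on simulated data. Python 3.11.15, numpy 2.4.6, pandas 2.3.3 and matplotlib 3.10.9 were used.

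The members and gene lists (stem and radial glia, astrocyte, neuron, oligodendrocyte lineage, microglia, fibroblast and vascular, peripheral and motor neuron, other filament genes, cytolinkers, chaperones and turnover, kinases, transport) were chosen with earlier results of these data known. List genes were named when called in the same direction on both days without overlap and averaging 5 TPM or more on each day, at most 4 a list. All other genes named that are not members, nearest genes or the target, among them *Nt5c2*, *Ttc23*, *Avil* and *Ubqln2*, were named after their values were seen. Some list genes are counted but not reported here by name. Positions and exon overlaps came from GENCODE vM21 (GRCm38) by symbol, which is not the authors' release, and promoters from RefSeq. Alternatives were another pseudocount or filter, quantile normalization, unscaled TPM, 75th percentile scaling, no trend, a replicate block, and leaving out each library.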

Additional observations from a re-analysis of the deposited data

Results flagged for a closer look

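The knockdown effect on day 7 differed from that on day 5, by the test of the difference in the fit over 16 libraries, for 4 members: by -0.331 for *Nes*, -0.257 for *Gfap*, -0.395 for *Vim* and 0.324 for *Ina* (log2, day 7 minus day 5). These values depend on the scaling. With TPM as deposited those of *Nes* and *Gfap* were not called and that of *Synm* was, with quantile normalization those of *Gfap*, *Vim* and *Ina* were not called, and with scaling to the 75th percentile that of *Nes* was not called.

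Single libraries stood apart from the other 3 of their group in 3 of 36 combinations of a member and a group, by Dixon's criterion for 4 values and chance flags about 1 in 20 groups. Replicate 1 of shRNA-CON on day 5 had 0.08 TPM of *Nefh* where the others all had 0.06, a gap equal to the whole range. Replicate 3 of shRNA-RUS on day 7 had 8.37 TPM of *Synm* (gap over range 0.86), above the others at 7.37 to 7.51. Replicate 4 of shRNA-RUS on day 7 had 24.78 TPM of *Ina* (gap over range 0.881), above the others at 21.4 to 21.8, and the rise of *Ina* on day 7 stayed called without it, with fitted values between 0.22 and 0.29 over all libraries left out in turn.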

How the results depend on the processing

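The number of members called stayed within 1.5 times the value given in 16 of 17 alternatives on day 5, 15 of 17 on day 7, 25 of 25 for time with each shRNA and 24 of 25 for the difference between the days. Quantile normalization called 3 members on day 5 and 3 on day 7 in place of 5 each, and 1 in place of 4 for the difference; without a filter on low genes, 3 were called on day 7. Leaving out each library gave 4 to 5 members on either day and for the difference, and 9 for time, a number that counts *Nefh*, which passed the filter only through day 7. Of 954 single values under an alternative, 914 kept direction and side of the threshold, 28 lost a call, 5 gained one and 7 changed sign, and no value that changed sign was called: *Ina* on day 5 with quantile normalization (0.056), *Nefh* in the difference with quantile normalization (-0.043), and on day 7 without single libraries *Nefh* (-0.065 to 0.268) and *Prph* (-0.384 to 0.051). The cause was not tested.

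The labels number the libraries 1 to 4 in each group, but same-numbered libraries did not deviate together (correlations from -0.23 to 0.11 over 16 pairs, 1 above 0.1), and only 3 of the 16 correlated best with their own number, so the numbers were not taken as pairs. With the replicate block, 4 members were called on day 5, 4 on day 7, 9 for time with each shRNA and 4 for the difference; *Synm* on day 5 (adjusted p = 0.0834, limma) and *Nefl* on day 7 (adjusted p = 0.063, limma) were not called.

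Depth is unknown from TPM. The lowest members, *Nefh* on both days and *Prph* on day 7, rest on few reads, and *Nefl* and *Nefm* share exonic bases on opposite strands, so neither direction nor absence of change is shown for them beyond the intervals given.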

Other observations

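Over time the filament partners moved as follows. Of all genes tested, 26.9% were called higher and 21.6% lower with shRNA-CON, and 35.0% and 25.8% with shRNA-RUS. Among the chaperones and turnover factors, 2 of 7 rose and 3 fell with shRNA-CON from day 5 to day 7, and 4 rose and 3 fell with shRNA-RUS. *Hspb1* fell by 2.29 with shRNA-CON (SE 0.12, limma adjusted p = 5.2e-10) and by 2.32 with shRNA-RUS (SE 0.12, limma adjusted p = 3.19e-10), and *Bag3* fell by 0.47 (SE 0.09, limma adjusted p = 0.000492) and rose by 0.31 (SE 0.09, limma adjusted p = 0.00847). The knockdown effect on day 7 minus that on day 5 was 0.77 for *Bag3* (SE 0.13, limma adjusted p = 0.000432) and -0.03 for *Hspb1* (SE 0.17, limma adjusted p = 0.918). Of the kinases, 2 of 12 rose and 3 fell with shRNA-CON, and 6 rose and 5 fell with shRNA-RUS; *Cdk1* was at 0.15 with shRNA-CON (SE 0.08, limma adjusted p = 0.123) and fell by 0.67 with shRNA-RUS (SE 0.08, limma adjusted p = 1.83e-06). Of the transport proteins, 3 of 8 rose and 1 fell with shRNA-CON, and 6 rose and 1 fell with shRNA-RUS. Of the 5 cytolinkers whose mean reached 0.1 TPM on each day, 1 rose and 1 fell with shRNA-CON, and 3 rose and 1 fell with shRNA-RUS. Of the other filament genes, 2 of 12 rose and 2 fell with shRNA-CON, and 4 rose and 4 fell with shRNA-RUS.

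The keratin gene *Krt18*, of simple epithelia, was low, and from day 5 to day 7 it fell by 2.425 with shRNA-CON (SE 0.17, limma adjusted p = 1.54e-08) and fell by 2.44 with shRNA-RUS (SE 0.17, limma adjusted p = 8.37e-09), and was named after its values were seen. It averaged 1.082 and 0.8975 TPM on day 5 and 0.135 and 0.1175 TPM on day 7. The latter lie near the pseudocount of 0.1, so the size of the fall depends on it. Its knockdown effect was -0.10 on day 5 (SE 0.17, limma adjusted p = 0.708) and -0.11 on day 7 (SE 0.26, limma adjusted p = 0.774).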
